A study of Mus musculus with 9 samples.

Results

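Imprinted genes are expressed from the copy of 1 parent, and 10 of them, H19, Igf2, Kcnq1ot1, Cdkn1c, Peg3, Snrpn, Mest, Gnas, Dlk1 and Meg3, were followed through maps of Dppa4 binding. The maps are lists of peaks from chromatin immunoprecipitation followed by sequencing (ChIP-seq) with a DPPA4 antibody in 3 mouse cell lines. Embryonic stem cells were of the E14 line, kept free of feeders in 2i medium with serum. The P19 cells are pluripotent embryonal carcinoma cells that came from a teratocarcinoma. Fibroblasts of the 3T3 line carried Dppa4 ectopically; the labels name neither the vector nor its promoter, nor whether the cells were 1 clone. Each line gave 2 immunoprecipitated libraries with a peak list of their own, and the 3 input libraries entered no comparison here. Members were the peaks within 10 kb of 7 spans of the mm9 genome that hold these genes, 186 of the 229345 peaks in the 6 lists. The members were thus chosen by where peaks lie, so every value below is a description and carries no test.

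Dppa4 encodes a nuclear protein of pluripotent cells and acts together with its relative Dppa2. Imprinted genes lie in clusters in which a control region is methylated on the chromosome of 1 parent, and this mark sets which copy is read. In the clusters examined, Igf2, Kcnq1ot1, Peg3, Snrpn, Mest and Dlk1 are read from the paternal chromosome, and H19, Cdkn1c and Meg3 from the maternal one. The Gnas locus has several starts, in the order Nesp, Gnasxl, exon 1A and Gnas itself, of which Nesp is maternal and Gnasxl paternal. The peak lists do not separate the parental chromosomes. They hold no expression values, so markers of the cell lines could not be checked. Cells lacking Dppa4 were not analysed here, so peaks that would arise without the protein cannot be told apart from its sites.

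To show the DNA around starts of genes that ranked high in 1 line or in all of them (Mest, Gnas, Dlk1), low (Peg3) or had no peak nearby (Kcnq1ot1), 6 promoter windows are printed from RefSeq on the build GRCm38.p6, 5′ to 3′ on the gene's own strand. Each runs from 250 bases before a start to 50 after it, and CG dinucleotides, the sites of DNA methylation, are in capitals. The coordinates are those of GRCm38.p6 and not of the peaks, which are in mm9, and the windows were not placed in mm9.
Mest, GRCm38.p6 chr6:30737800-30738099, plus strand: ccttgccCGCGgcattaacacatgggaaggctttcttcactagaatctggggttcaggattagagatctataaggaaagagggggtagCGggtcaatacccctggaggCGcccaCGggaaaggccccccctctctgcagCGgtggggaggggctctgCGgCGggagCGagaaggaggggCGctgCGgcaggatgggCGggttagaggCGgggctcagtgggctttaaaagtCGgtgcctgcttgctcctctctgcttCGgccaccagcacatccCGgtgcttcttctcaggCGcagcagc
Gnas, lowest start, GRCm38.p6 chr2:174284070-174284369, plus strand: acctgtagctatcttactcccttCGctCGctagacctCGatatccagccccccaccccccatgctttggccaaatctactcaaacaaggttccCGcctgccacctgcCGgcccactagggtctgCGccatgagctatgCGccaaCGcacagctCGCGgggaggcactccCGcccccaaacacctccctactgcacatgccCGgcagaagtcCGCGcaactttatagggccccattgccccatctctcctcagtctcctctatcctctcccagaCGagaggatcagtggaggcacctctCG
Gnas, highest start, GRCm38.p6 chr2:174329756-174330055, plus strand: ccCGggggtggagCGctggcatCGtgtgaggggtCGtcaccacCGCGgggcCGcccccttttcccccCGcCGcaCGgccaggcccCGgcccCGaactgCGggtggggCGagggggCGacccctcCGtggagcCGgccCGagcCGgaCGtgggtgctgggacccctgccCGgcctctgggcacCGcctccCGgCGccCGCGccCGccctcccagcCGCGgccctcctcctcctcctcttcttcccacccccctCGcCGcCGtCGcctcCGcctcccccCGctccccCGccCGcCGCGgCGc
Dlk1, GRCm38.p6 chr12:109452573-109452872, plus strand: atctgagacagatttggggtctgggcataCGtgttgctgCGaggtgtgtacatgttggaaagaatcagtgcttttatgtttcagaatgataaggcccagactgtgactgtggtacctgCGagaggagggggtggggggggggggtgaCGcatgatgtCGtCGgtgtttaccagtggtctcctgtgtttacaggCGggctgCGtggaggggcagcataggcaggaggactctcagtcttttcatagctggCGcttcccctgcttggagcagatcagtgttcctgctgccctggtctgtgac
Peg3, GRCm38.p6 chr7:6730370-6730669, minus strand: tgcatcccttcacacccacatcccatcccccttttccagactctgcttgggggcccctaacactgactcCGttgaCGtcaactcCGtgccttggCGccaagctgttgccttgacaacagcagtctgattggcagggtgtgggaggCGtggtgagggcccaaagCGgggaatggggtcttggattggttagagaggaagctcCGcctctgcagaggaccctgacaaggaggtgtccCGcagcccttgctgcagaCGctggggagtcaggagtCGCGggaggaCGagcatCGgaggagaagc
Kcnq1ot1, GRCm38.p6 chr7:143296498-143296797, minus strand: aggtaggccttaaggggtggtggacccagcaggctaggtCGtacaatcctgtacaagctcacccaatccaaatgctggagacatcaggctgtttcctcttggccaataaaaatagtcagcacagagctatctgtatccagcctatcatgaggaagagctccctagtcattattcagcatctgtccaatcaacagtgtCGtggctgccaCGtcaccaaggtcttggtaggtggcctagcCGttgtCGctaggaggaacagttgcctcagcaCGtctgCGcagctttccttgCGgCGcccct

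The Mest window held 17 CG dinucleotides, and 31.4% of all 32851 promoter windows held as many or more. A further Mest window, 4.5 kb below it, held 8 (48.6%). Of the 4 Gnas windows, the lowest held 16 (33%) and the highest, 45.7 kb above it, held 40 (3.91%). The other two, 43.4 kb above the lowest, held 27 and 28 (15.5% and 14.2%). The Peg3 window held 13 (37.9%). Dlk1 and Kcnq1ot1 held 9 each (45.8%). The Dlk1 end of its span carried a peak in 6 of 6 libraries and the Kcnq1ot1 end in none. A relation between CG number and peaks was not tested. The windows not printed held 2 to 24 for Igf2, 2 to 7 for Snrpn and 13 and 1 for Meg3. CG was searched as these 2 letters, which read the same on both strands, and 94.6% of the windows held at least 1, with a median of 7. Promoter windows were found for 8 of the 10 genes, all but H19 and Cdkn1c.

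Scores of the authors' peak caller were used to rank the peaks of a list, and a percentile is the share of peaks in the same list with a score no higher, so that 100 stands for the strongest. Peaks at or above a score of 3100, where many tie, numbered between 1 and 2108 per list. The percentile of a peak that scored 3100 is the upper bound of that tie. A region was held by a line when peaks of both its libraries overlapped, and overlapping regions of different lines were merged. A line that did not hold a region could still have a peak there in 1 library. Positions are given in mm9, counted from 1, and as distances from the ends of the spans, which are rounded to 1 kb. Genes on the plus strand start at their lower end, and genes on the minus strand at their upper end. No mm9 gene annotation was used, so exons, introns and UTRs were not assigned to peaks.

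Dppa4 peaks were found at all 7 spans, but their strength differed widely between them. Gnas, Dlk1 to Meg3 and Kcnq1ot1 to Cdkn1c held peaks among the best 10% of the lists in both E14 and both P19 libraries, and Mest did so in E14. Peg3 held no region reproduced within a line, and Snrpn held 1, in E14. The E14 libraries gave 48 and 35 peaks at the spans, or 41.5 ± 9.19 as mean and SD (n = 2). In P19 there were 34 and 40, or 37 ± 4.24, and in 3T3 14 and 15, or 14.5 ± 0.707. The 3T3 libraries were the lowest, as they were over the whole lists, and 2 libraries against 2 could not give an exact two-sided p under 0.333. As a share of the list, the members made up 0.0905% and 0.0855% of the peaks in the 3T3 libraries. In the E14 and P19 libraries, which overlapped each other, they made up 0.0778% to 0.085%. The 3T3 shares rest on 14 and 15 peaks, and 0.0855% is nearly equal to 0.085%, so no order of the lines is read from them. Peaks were 3.26 to 3.79 times as dense at the spans as over the genome up to the last peak of each chromosome. The number of reads behind the lists is unknown, so where a peak is missing the site may be unbound or too weak to be detected.

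Split into 10 kb bins, the spans and their flanks held a reproducible E14 region in 23 of 72 bins (31.9%), against 12.7% of all bins of the genome. P19 regions lay in 21 bins (29.2%), against 10.9%, and 3T3 regions in 6 (8.33%), against 4.16%. The spans were drawn around genes, and whether other genic stretches reach the same shares was not tested. With every list shortened to the length of the shortest, the shares became 13.9% for E14 (against 4.95% of all bins), 16.7% for P19 (against 5.01%) and 8.33% for 3T3 (against 4.04%).

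After merging, the spans held 35 reproducible regions. E14 held 28 of them with or without other lines (80%, against 80.9% over the series), P19 25 (71.4%, against 70.4%) and 3T3 6 (17.1%, against 24.2%). E14 and P19 together without 3T3 held 13 of them (37.1%, against 40.2% of all 45616 regions of the series), and all 3 lines held 5 (14.3%, against 15.4%). E14 alone held 9 (25.7%, against 22%), P19 alone 7 (20%, against 13.7%), and E14 with 3T3 held 1 (2.86%, against 3.27%). No region was held by 3T3 alone (4.37% over the series) or by P19 with 3T3 (1.1%). The mix of lines at imprinted spans was thus near that of all regions. Leaving out a library drops the need for overlap within its line, so every peak of the remaining library counts as a region. The resulting counts therefore cannot show how far those above depend on a single library. Without E14 replicate 2, E14 alone held 21, and without P19 replicate 1, P19 alone held 15 and E14 alone 5. P19 alone held 11 without P19 replicate 2 and 4 without E14 replicate 2.

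**Figure D1:**
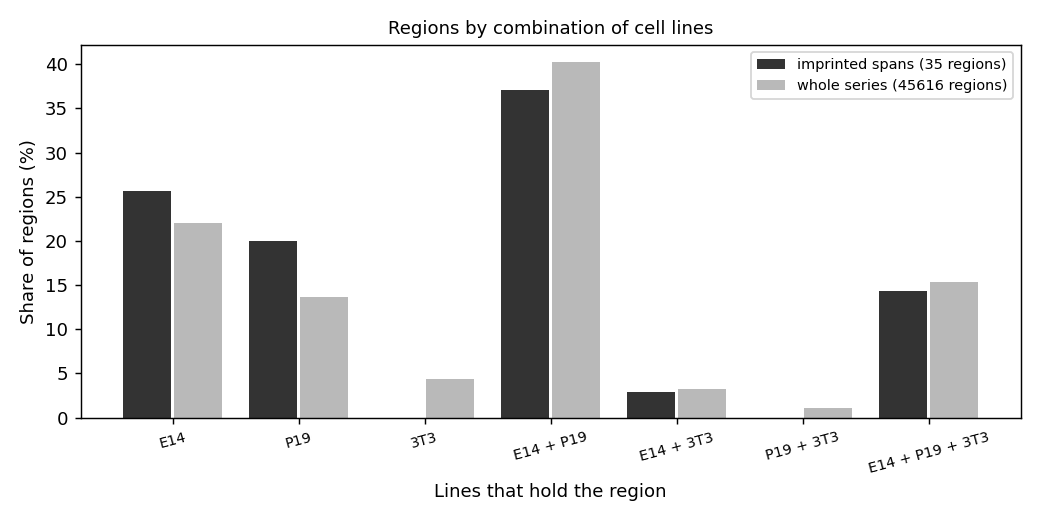
Bars give the share of regions (%, vertical axis) in each combination of lines (horizontal axis), dark for the 35 regions of the imprinted spans and light for the 45616 of the whole series. Regions of E14 with P19 are the most frequent kind in both sets, at 37.1% and 40.2%.

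The Gnas span (chromosome 2, 174109 to 174172 kb) encodes, among other products, the alpha subunit of the stimulatory G protein, and it held the strongest and widest stretch that all lines shared. That stretch ran from 174152374 to 174156760, 43.4 kb from the lower end, and spanned 4387 bp against a median of 866 bp for the 35 regions and 843 bp for all regions. Its width is that of a union of peaks from all libraries. The widest single peak in it had 2973 bp, in 3T3 replicate 2, and E14 replicate 1 had separate peaks of at most 1255 bp. The best peak of the stretch scored 1057 and 880 for E14, 3100 and 3100 for P19 and 1074 and 1596 for 3T3. The percentiles were 95.4 and 94.7 in the E14, 99.7 and 99.8 (upper bounds of a tie) in the P19 and 99.1 and 98.5 in the 3T3 libraries. The stretch thus ranked in the top 10% of every list. Of the 6 regions that 3T3 held at the spans, it was the only 1 with a mean percentile above 90 in that line (16.7%, against 13.6% over the series).

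The lower end of the Gnas span, the side of the first start of the locus (Nesp), carried a strong peak in P19 alone. The region from 174109469 to 174112669 began 0.5 kb inside the span. The P19 libraries scored it at 2076 and 3100. Replicate 2 of E14 had a peak of 101 and replicate 2 of 3T3 one of 105, while replicate 1 of either line had none. In percentiles that was 94.2 and 99.8 in P19, 0 and 40.2 in E14, and 0 and 36.9 in 3T3, where 0 stands for no peak. Of the 7 P19 regions at the spans with a mean percentile above 90, this was the only 1 that E14 did not hold (14.3%). Over the series, E14 lacked 35 of 4407 such P19 regions (0.794%). P19 held all 6 E14 regions above the percentile of 90 at the spans, and lacked 0.825% of them over the series.

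Between these, a region shared by E14 and P19 lay from 174123676 to 174126629, 14.7 kb from the lower end. It scored 1695 and 1544 in E14 and 1713 and 2784 in P19, and 55.2 and 145 in 3T3, where its peaks did not overlap each other. The E14 percentiles of 98.5 and 98.2 were above the P19 values of 92.9 and 95.4, and the 3T3 values were 11.6 and 47.9. Near the upper end, 61.4 kb from the lower end, E14 held a weaker region that scored 316 and 113, and neither P19 nor 3T3 had a peak there. The other 2 regions of the span were weak: P19 alone held one at 4.3 kb, with scores of 66.4 and 55.2, and E14 alone held one at 11.6 kb, with scores of 119 and 77.4. No other line had a peak in either.

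**Figure D2:**
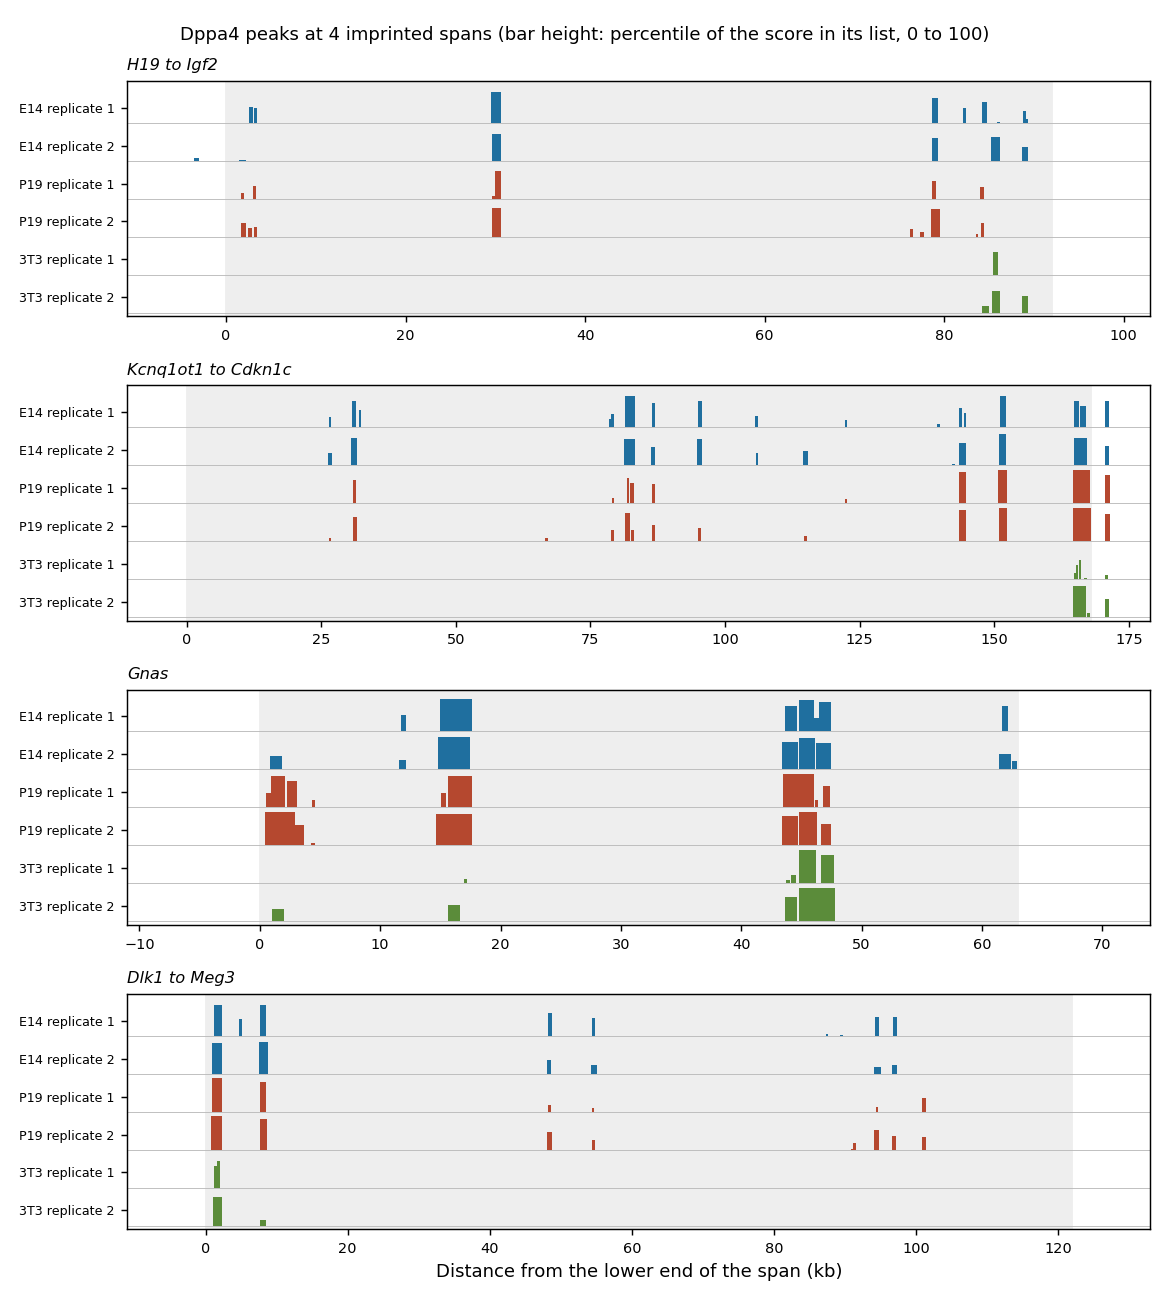
Horizontal position is the distance (kb) from the lower end of each of 4 spans, shaded, with 1 row per library; each bar is a peak, drawn at its width or at a minimum that keeps it visible, and its height is the percentile of its score within the list. At Gnas the P19 rows have tall bars at 0.5 kb where E14 and 3T3 have a low bar or none, and all rows have tall bars from 43.4 kb.

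Mest, a paternally expressed gene for a hydrolase-like protein of mesoderm, showed the opposite line order. The region at the lower end of its span, the start side of this plus-strand gene, ran on chromosome 6 from 30686808 to 30688832. It scored 1432 and 1441 in E14 and 93.7 and 119 in P19, against 95.9 and 173 in 3T3. The E14 libraries ranked it at percentiles of 97.7 and 98.0, while the P19 libraries placed it at 37.3 and 44.7 and the 3T3 libraries at 46.9 and 53.8. E14 lay above P19 and 3T3 with no overlap. The mean percentile of E14 exceeded that of P19 by 56.8 points, and 60 of the 25357 regions held by both lines over the series (0.237%) had as large a difference. When every list was limited to its best-scoring peaks, at the length of the shortest, the Mest span had no P19 peak left. Its mean best percentile in E14, counted within the shortened lists, was 92.6. Both outcomes follow from the ranks in the full lists and add no separate support.

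A further region lay 3.5 to 4.3 kb below the Mest span, from 30682675 to 30683483, in E14 and P19. It scored 214 and 68.5 in E14 and 165 and 237 in P19, at percentiles of 66.6, 21.3, 58.9 and 66.2, and had no 3T3 peak. Here the E14 libraries differed from each other more than the lines did. Its peaks were the members farthest from a span, at most 3.64 kb away. The nearest peak that the 10 kb limit left out lay 11 kb above the Gnas span and scored 52 in P19 replicate 2.

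**Figure D3:**
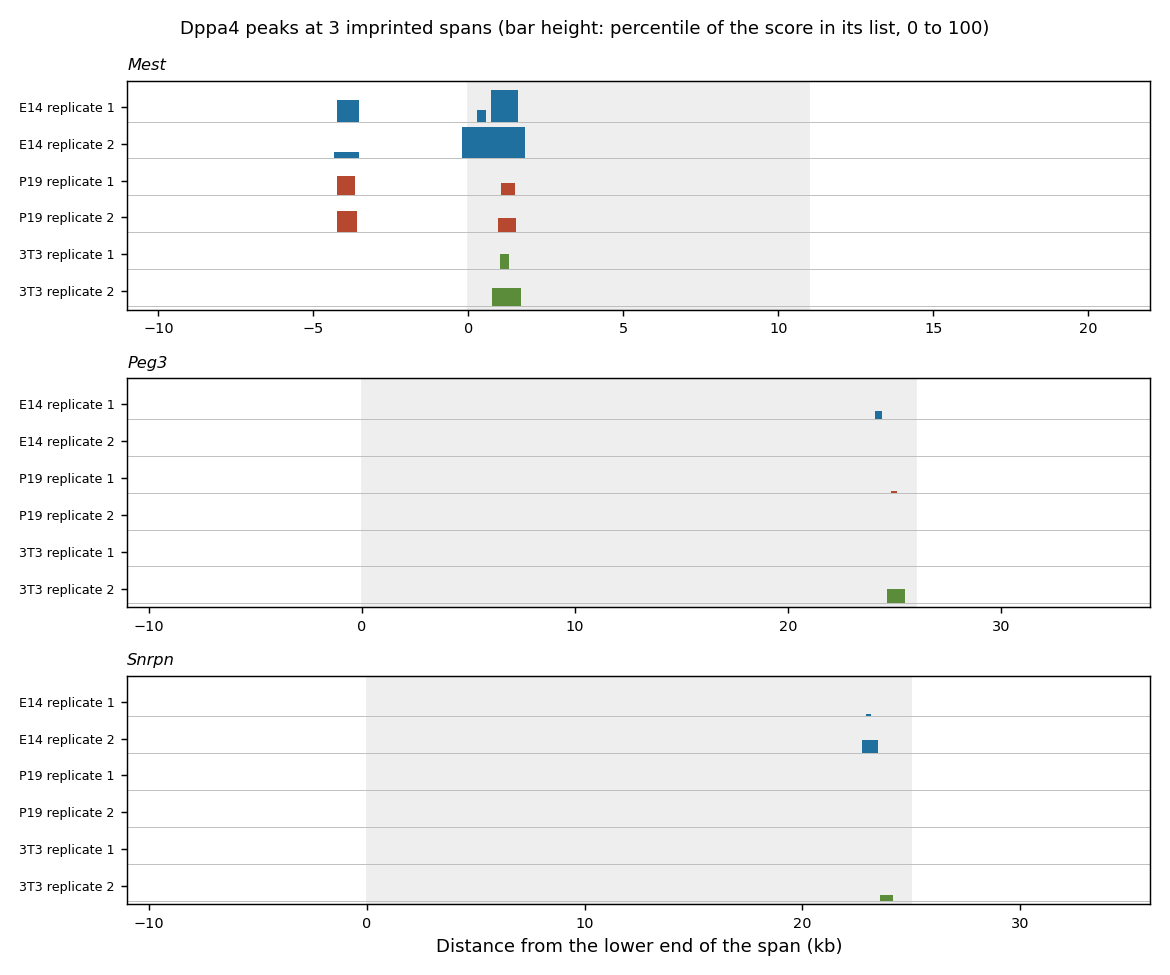
Distance (kb) from the lower end of the Mest, Peg3 and Snrpn spans is on the horizontal axis, with 1 row per library and bar heights giving the percentile of each peak's score in its list. The Mest start side has tall bars in both E14 rows (97.7 and 98.0) and low to middle bars in the other rows, and Peg3 and Snrpn have few and low bars.

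Peg3 is a zinc finger gene. Snrpn, a gene for a splicing protein, lies in the region tied to Prader-Willi syndrome. Both spans held few and weak Dppa4 peaks. They are short, at 26 and 25 kb, and the whole lists held 5.7 to 22.8 peaks per Mb. The average density of the lists would therefore also give few peaks here. The Peg3 span (chromosome 7, 6658 to 6684 kb) had 1 peak each in E14 replicate 1, P19 replicate 1 and 3T3 replicate 2, with scores of 70.2, 51.9 and 124 and percentiles of 25.7, 4.01 and 42.6. None was found again in the other library of its line. The Snrpn span (67126 to 67151 kb on the same chromosome) had peaks scoring 53 and 100 in E14 and 69.6 in 3T3 replicate 2, and none in P19. The E14 peaks overlapped and formed a region from 67148750 to 67149487, at percentiles of 6.24 and 40. All 6 peaks of these spans lay within 3 kb of the upper end, the start side of both minus-strand genes, and none ranked above the middle of its list. No library had a peak in the 138 kb below the Peg3 peaks and the 183 kb above them, nor in the 95.5 kb below and the 150 kb above the Snrpn peaks. How often stretches of such lengths lack peaks elsewhere in the genome was not tested.

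In the Dlk1 to Meg3 span (chromosome 12, 110690 to 110812 kb), the strong peaks were on the side of Dlk1, which encodes a membrane protein of the Notch ligand family. The region at the lower end, from 110690814 to 110692382 and 0.8 kb inside the span, was held by all lines. It scored 832 and 760 for E14, 3100 and 3100 for P19 and 239 and 578 for 3T3. Its percentiles were 92.6 and 93.2 in the E14, 99.7 and 99.8 in the P19 and 79.9 and 86.9 in the 3T3 libraries, so it ranked highest in P19 and lowest in 3T3 with no overlap. A neighbour from 110697575 to 110698728 had percentiles of 93.5 and 93.9 in E14 and 88.3 and 90.5 in P19. In 3T3 it had only a peak scoring 66 in replicate 2.

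Towards Meg3, a long noncoding RNA, the other 5 regions of this span were weaker. The strongest of them, from 110738036 to 110738720, scored 226 and 102 in E14 and 64.6 and 155 in P19, at percentiles of 68.1, 40.6, 19.1 and 53.7. Its libraries spread as widely within a line as between lines. The other 4 had percentiles from 0 to 59.1 in the E14 and P19 libraries, and no 3T3 peak lay in any of the 5. Between the genes, where the control region of this cluster is known to lie, stretches of 39.3 kb (110698729 to 110738035) and 32.3 kb (110745065 to 110777332) had no peak in any library. Most of the genome is likewise empty, as 12.7% of all 10 kb bins held a reproducible E14 region, 10.9% a P19 and 4.16% a 3T3 region. Whether these stretches are unusually long was not tested.

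In the Kcnq1ot1 to Cdkn1c span (chromosome 7, 150480 to 150648 kb), the strongest P19 peaks lay on the side of Cdkn1c, an inhibitor of cyclin-dependent kinases that restrains growth, and 8 of the 12 regions lay farther into the span. The region from 150644651 to 150648014 reached the upper end of the span and was held by all lines. It scored 329 and 374 in E14 and 3100 and 3100 in P19, against 116 and 812 in 3T3. The P19 percentiles of 99.7 and 99.8, upper bounds of a tie, lay above those of E14 (76.9 and 82.0) and 3T3 (55.4 and 92.9). The 3T3 libraries lay on both sides of E14. In P19 its peaks were 3175 and 3364 bp wide, the widest members in that line, at the percentile of 99.9 by width in both lists.

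Further strong peaks stood below Cdkn1c, the first of them in both E14 and P19. The region from 150630766 to 150632346, 15.7 to 17.2 kb below the upper end, scored 985 and 782 in E14 and 3100 and 3100 in P19, with no 3T3 peak. Its percentiles were 94.6 and 93.6 in E14 and 99.7 and 99.8, upper bounds of a tie, in P19. The E14 mean of 94.1 was the highest in that line among the regions of this span. Over the series, 27% of the regions held by both lines had as large a difference in favour of P19. The next, from 150623435 to 150624826, scored 157 and 205 in E14 and 1873 and 1675 in P19, at percentiles of 58.1, 65.8, 93.4 and 92.8. The P19 mean was 31.1 points higher there, and 3.86% of the regions held by both lines over the series had as large a difference in that direction. Just above the span, a region from 150650516 to 150651425 was held by all lines, with percentiles of 78.2 and 56.1 for E14, 84.9 and 79.8 for P19 and 12.7 and 53.2 for 3T3.

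The remaining 8 regions of this span lay 26.2 to 115.3 kb from the lower end, and none had a 3T3 peak. The one at 81.2 kb, from 150561206 to 150563289, scored 799 and 317 in E14 and 307 and 539 in P19. Its E14 percentiles of 92.1 and 78.2 enclosed the P19 values of 74.8 and 82.4, and its E14 mean of 85.2 was above the 79.4 of the region at the Cdkn1c end. At 94.8 kb E14 held a region that scored 360 and 334, where P19 replicate 2 had a peak of 104 and replicate 1 had none. Its mean percentile of 79.1 in E14 was close to that of the Cdkn1c end. The other 6 had mean percentiles of 19.6 to 79.6 in E14 and 0 to 71.2 in P19.

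At the other end of the span, Kcnq1ot1, a long noncoding RNA, starts inside Kcnq1 and is read away from Cdkn1c. No library had a peak there. The nearest lay 19.3 kb below and 26.2 kb above the lower end of the span, leaving 45.5 kb (150460669 to 150506204) without a peak. Over the genome, only 12.7% of 10 kb bins held a reproducible E14 region, so stretches without one are common. The length of peak-free stretches elsewhere was not examined. E14 and P19 first shared a region at 150510595 to 150511691, with scores of 371, 340, 243 and 312.

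**Figure D4:**
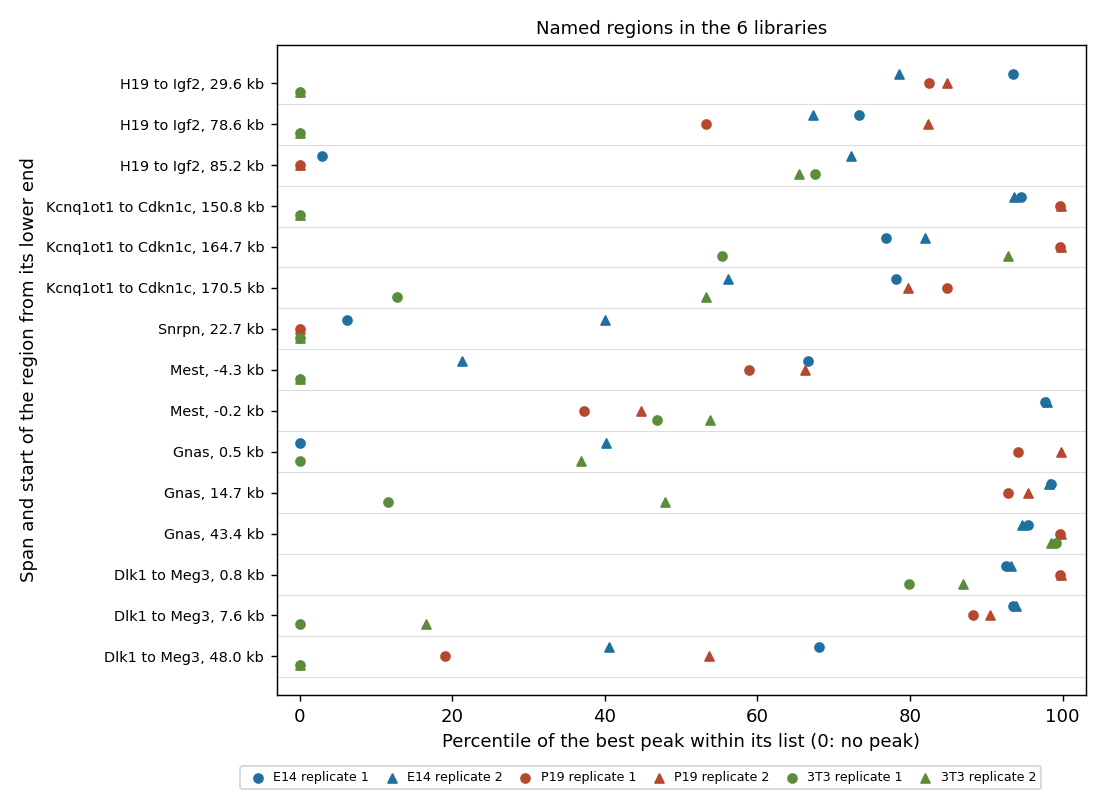
Each row is a named region, given by its span and its start in kb from the lower end of the span (negative where it begins below it); points give the percentile (horizontal axis, 0 for no peak) of its best peak in each of the 6 libraries, circles for replicate 1 and triangles for replicate 2. All 6 points of Gnas at 43.4 kb lie between 94.7 and 99.8, the E14 points of Mest at -0.2 kb stand apart on the right, and the P19 points of Gnas at 0.5 kb do.

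In the H19 to Igf2 span (chromosome 7, 149761 to 149853 kb), a long noncoding RNA and a fetal growth factor share enhancers under a common control region. No region here reached a mean percentile of 90 in any line. The strongest, from 149790555 to 149791604 and 29.6 kb from the lower end, lay between the genes and scored 890 and 323 in E14 and 496 and 645 in P19. Its percentiles of 93.5 and 78.6 in E14 enclosed those of P19 (82.5 and 84.9), and 3T3 had no peak. Stretches of 26.1 kb below it (149764415 to 149790554) and 45.6 kb above it (149791605 to 149837191) had no peak in any library. Whether such stretches are longer than those elsewhere in the genome was not tested. The control region of the cluster is known to lie upstream of H19 on the side facing Igf2; it was not placed in mm9 here.

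Near Igf2, the sites held differed between the lines. The region from 149839556 to 149840559 was held by E14 and P19, with scores of 280, 215, 140 and 535. Closer to the upper end, the region from 149846186 to 149847249 was held by E14 and 3T3 and had no P19 peak. It scored 51.4 and 254 in E14 and 160 and 254 in 3T3, at percentiles of 2.96, 72.2, 67.5 and 65.5, so E14 replicate 1 stood far below the others. At 2.6 to 3.3 kb below the upper end, E14 held a region with scores of 84.2 and 105, with a peak of 154 in 3T3 replicate 2 and none in P19. P19 instead held one from 149845007 to 149845500, with scores of 91.8 and 106, where E14 replicate 1 scored 189 and 3T3 replicate 2 scored 72.4. On the side of H19, P19 held 2 weak regions, in each of which 1 E14 library also had a peak. The region from 149762695 to 149763215 scored 61.2 and 111 in P19 and 51.1 in E14 replicate 2. The region from 149764035 to 149764410 scored 95.7 and 82.2 in P19, and E14 replicate 1 had a peak whose percentile of 43.4 was above the P19 values of 38.2 and 29.2. No 3T3 peak lay in either.

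Over the 18 regions that E14 and P19 both held, the differences in rank went both ways. As E14 minus P19, they ran from -31.1 to 56.8 points, with quartiles of -6.54 and 7.96, against quartiles of -6.56 and 14.1 over the series. The median difference, E14 minus P19, was 2.41 points, with 11 regions above 0 and 7 below, against 2.27 over the 25357 such regions of the series. Both E14 libraries ranked above both P19 libraries by a mean of at least 25 points at 1 region, Mest (5.56%, against 10.2%). The reverse held at 1 region, the one 143.4 kb from the lower end of the Kcnq1ot1 to Cdkn1c span (5.56%, against 5.93%). The limit of 25 points was chosen after the values were seen. E14 regions with a mean percentile above 90 numbered 6 of 28 (21.4%, against 12.8%), and P19 regions 7 of 25 (28%, against 13.7%). Of these, 3T3 did not hold 3 of the 6 (50%, against 67.6%) and 4 of the 7 (57.1%, against 70.1%).

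**Figure D5:**
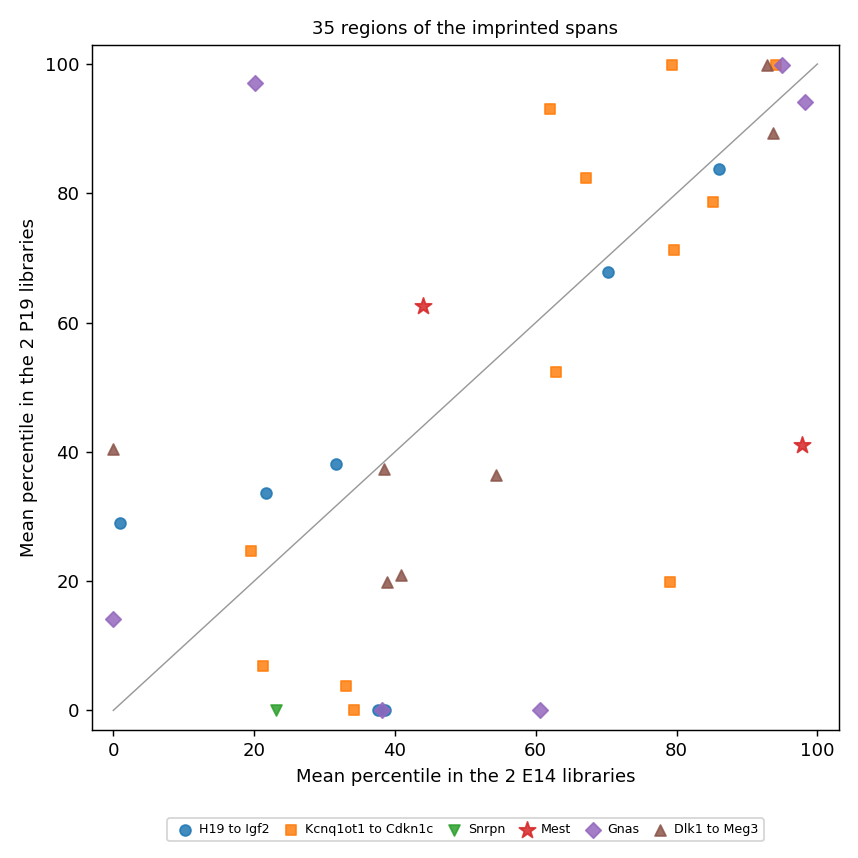
Each point is 1 of the 35 regions, placed by its mean percentile in the 2 E14 libraries (horizontal) and the 2 P19 libraries (vertical), with 0 for a library without a peak; symbols mark the spans and the line marks equal ranks. The Mest start region lies far below the line, 56.8 points apart, and the Gnas region at 0.5 kb lies in the upper left.

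Agreement between the libraries of a line was like that of the whole lists except in 3T3 replicate 2, which had few member peaks. Of the member peaks, 72.9% and 85.7% overlapped a peak of the other library in E14 (66.7% and 86.5% over the lists) and 94.1% and 72.5% in P19 (87.7% and 65.2%). In 3T3 the shares were 92.9% and 46.7% (86.8% and 63.9%), where 46.7% stands for 7 of 15 peaks. Peaks seen in a single library of their line numbered 13 and 5 in the E14, 2 and 11 in the P19 and 1 and 8 in the 3T3 libraries.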

How the data were processed

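The 6 deposited lists hold, per peak, its chromosome, start, end, name and a score from the authors' peak caller, whose scale is not named. Peak names begin with MACS, per the files themselves. Per the submitters' processing notes, the build was mm9 and the tools were BWA 0.7.13-r1126, SAMtools 1.3, bcl2fastq 1.8 and CASAVA 1.8. How the peak caller was set and which control it had is not given in the sources used here. Peaks were called in each library separately.

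Libraries were grouped by the line and number in their titles. Nothing states that the libraries stem from separate cultures, so their spread may be technical. Overlap meant at least 1 bp. A line's regions were unions of overlapping peaks of its 2 libraries. Named regions were the 3 of each span that ranked highest by mean percentile in the 6 libraries, plus regions of a single line with a mean percentile above 80; those outside the rule were named after their values were seen. The spans, members and settings were chosen with earlier results of these data known. A planned list of other imprinted genes was not run, since no mm9 annotation was used. The tools were SciPy 1.17.1, pandas 2.3.3, NumPy 2.4.6 and Matplotlib 3.10.9 under Python 3.11.15. The overlap code was tested on simulated peaks and found 2040 of 2040 placed regions.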

Additional observations from a re-analysis of the deposited data

How the results depend on the processing

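The lists, not the overlap rule, moved the counts. An overlap of 50% of the shorter peak moved no count by over 1.5 times, and peaks set to 500 bp moved only E14 with 3T3, to 2. With the best-scoring 50% of each list, E14 gave 17 reproducible regions, P19 15 and 3T3 4, and the bins of the spans holding one were 19.4% in E14 and 20.8% in P19. E14 alone then held 3 regions, P19 alone 2, 3T3 alone 1, E14 with 3T3 0 and all lines 3. With lists as long as the shortest, E14 gave 13 reproducible regions, P19 12 and 3T3 7, against 29, 26 and 7 before merging over lines; bins were 13.9% in E14 and 16.7% in P19. E14 alone held 1, P19 alone 2, 3T3 alone 1, E14 with P19 6, P19 with 3T3 1 and all lines 3. Spans with an E14 peak above the percentile of 90 in both libraries fell from 4 to 2 in both cases. Percentiles were counted anew within the shortened lists, so this fall follows from the shortening and not from lost peaks. Without flanks the bins were 37.9% in E14 and 34.5% in P19, with 5 kb bins 25.2% and 20.7%, and with 20 kb bins 46.3% and 43.9%.

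Leaving out a library gave 35 to 48 regions in E14, 34 to 40 in P19 and 14 to 15 in 3T3, since every peak of the remaining library then counts, and bins of 38.9% to 40.3%, 31.9% to 37.5% and 9.72% to 16.7%. E14 alone held 5 to 21 regions, P19 alone 4 to 15, 3T3 alone 0 to 2, E14 with P19 11 to 17, E14 with 3T3 1 to 2, P19 with 3T3 0 to 2 and all lines 5 to 7. Spans with a peak above the percentile of 90 in every library were 1 to 2 in 3T3, 4 to 5 in E14 and 3 in P19. With a replicate block (lines compared between libraries of the same number, mean of both numbers), 3T3 alone held 1, P19 with 3T3 0.5 and all lines 8; no label ties libraries of the same number together. The block could not be applied to counts within a line.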
